A study of Homo sapiens and Mus musculus with 69 samples.

Results

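The comparison described here set NCI-H69 cells that carried an inducible *NOTCH1* vector but had not been induced against the parental NCI-H69 cells they came from. NCI-H69 (H69) is an established small cell lung cancer line of neuroendocrine type. The vector was a lentiviral construct from which doxycycline turns on N1ICD, the intracellular domain of human NOTCH1 that enters the nucleus when the receptor is cleaved. The vector cells were labelled *NOTCH1* without doxycycline (no dox) and the untransduced cells parental. Both were measured by RNA-Seq of polyA RNA in 3 libraries each, numbered 49 to 51 and 46 to 48. A further 3 libraries, 52 to 54, held the vector cells with doxycycline. Their levels are given below only where an induced level helps to read an uninduced one. They also took part in the filter on low values and in the estimate of the spread. Genes that were on only with doxycycline can thus be among the genes tested. These 6 compared libraries were chosen by their labels alone, out of 60 human libraries over 20516 genes, and every gene in the table took part. The study itself asked what Notch activation does to immune genes in small cell lung cancer, and the uninduced vector cells were its baseline. The vector cells had in addition been infected with virus, selected with antibiotic and kept under selection, so the vector, the selection and the separate culture of these cells could not be told apart. Neither the labels nor the methods used here say whether a vector line was grown from 1 clone, or how the uninduced cells were harvested, whereas induced cells were taken from the adherent fraction. The labels do not say that the 3 libraries of a group came from separate cultures, so each P value measures the spread between libraries, which may be technical.

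Small cell lung cancer is a neuroendocrine tumor whose cells usually run on 1 of a few basic helix-loop-helix or POU transcription factors. NEUROD1 is such a factor of a neuroendocrine subtype, and it binds E-box sequences near genes for secretory granules, neuropeptides and synaptic proteins. Notch signaling opposes the neuroendocrine program: binding of a DLL or JAG ligand on a neighboring cell leads proteases to cut the receptor, and the freed N1ICD turns on HES and HEY repressors. Most such tumors hold little MHC class I, the complex that shows peptides to T cells, and interferon regulatory factors (IRFs) are among the proteins that set its level.

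Values are log2(RPKM + 1), read counts scaled to transcript length and library size with 1 added, so 0 means that no read was counted and differences of low genes are understated. A gene was called when limma, a linear model with moderated variances, gave an adjusted P under 0.05 and the log2 fold change reached 1 in either direction. Errors are SD over 3 libraries, or the standard error (SE) of a fold change. The deposited table gives no read totals, but the spacing of the lowest values put the depth of the other 5 libraries at 0.81 to 1.11 times that of library 46.

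The vector cells resembled H69 more closely than any other line. Across 15888 genes, libraries 49 to 51 correlated with the mean of parental H69 at a Pearson r of 0.971 to 0.976, against 0.787 to 0.876 with the untreated cells of H82, H524 and COR-L88, 3 other small cell lung cancer lines of the series. Genes that only parental H69 held among the untreated lines numbered 22, and 19 of them kept a value of at least 1 in all 3 vector libraries. The 3 that did not were *ASB3*, *GLYATL3* and *TEX41*, named here after their values were seen.

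Library 49 stood apart from libraries 50 and 51. *MYC*, an oncogene whose RNA is abundant in H82 and H524, was at 6.75 in library 49 but at 1.35 and 1.04 in libraries 50 and 51, at 1.81 to 2.13 in the parental cells and at 6.82 to 6.84 in the induced libraries. *NXNL1*, a survival factor gene of photoreceptors, was at 3.71 in library 49 and at 0 in libraries 50 and 51, while H82 parental cells held it at 7.64. A set of 20 genes was abundant in H82 parental cells and at or near 0 in parental H69, H524 and COR-L88. It was chosen after the data were seen, and so that libraries 46, 47 and 48 were under 0.1. Of these 20 genes, 15 reached 0.1 in library 49 and 0 did so in libraries 50 and 51. The RPKM of the 20 genes in library 49 was at the median 4.58% of the H82 level, with a range up to 28.6%. Photoreceptor genes (*RP1*, *NXNL1*, *AIPL1*, *ARR3*) were among them, and in the induced libraries each of these 4 was at 0. Other genes of the 20 were on in induced H69 cells too: 7 reached 0.1 in each induced library, among them *SH3BGRL* (8.05 to 8.16, against 5.44 in library 49), *DSCR8* (5.27 to 5.86, against 3.21) and *MYH6* (4.19 to 4.29, against 3.21). Library 49 also correlated more closely with H82 (r = 0.830) than libraries 50 and 51 did (0.787 and 0.790), and likewise with H524 (0.876 against 0.847 and 0.849) and COR-L88 (0.841 against 0.825 and 0.828). The part of these reads in the results was not tested. Calls over all genes, and over each gene list whose counts are printed, are therefore given with and without library 49.

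**Figure D1:**
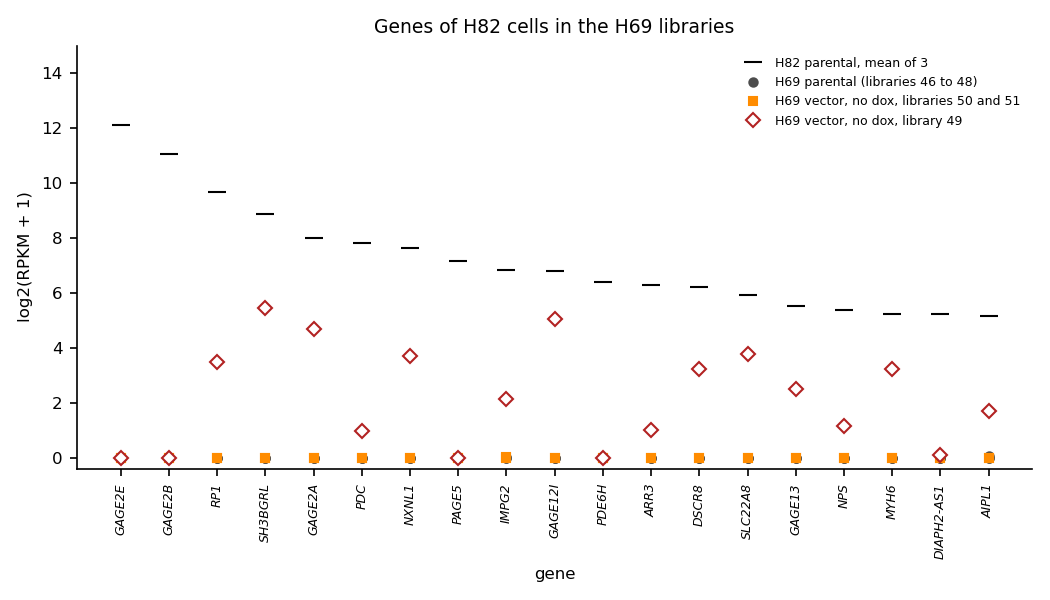
Levels of 19 of the 20 genes of H82 cells, in log2(RPKM + 1), in the H69 libraries. Black dashes are the H82 parental mean, open diamonds library 49, squares libraries 50 and 51 and circles the parental libraries, the last largely hidden behind the squares at 0. Only the diamonds rise above the floor, with *SH3BGRL* highest at 5.44.

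Of 13580 genes tested, 716 (5.27%) differed between the uninduced vector cells and the parental cells, 410 higher (3.02%) and 306 lower (2.25%). At the adjusted P alone 3727 genes passed, and 5228 of the 13580 had an unadjusted P under 0.05 by limma. The median log2 fold change over all genes tested was -0.01, with 7055 below 0. Fitted without the 3 induced libraries, 12396 genes were tested, 684 were called and 2580 passed the adjusted P alone. With all groups fitted but without library 49, the call was made for 777 of 13447 genes (5.78%), 426 higher and 351 lower. Of the 716 genes, 616 were called in the same direction without library 49, 44 left the test because too few libraries then reached the filter, and 56 stayed in the test but missed the threshold. In 711 of the 716 the groups did not overlap, against 5399 (39.8%) of all genes tested. Among the 716, 186 differed by at least 2 on the log2 scale and 64 by at least 3. The counts called in each gene list below are to be read beside the 3.02% higher and 2.25% lower over all genes tested.

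**Figure D2:**
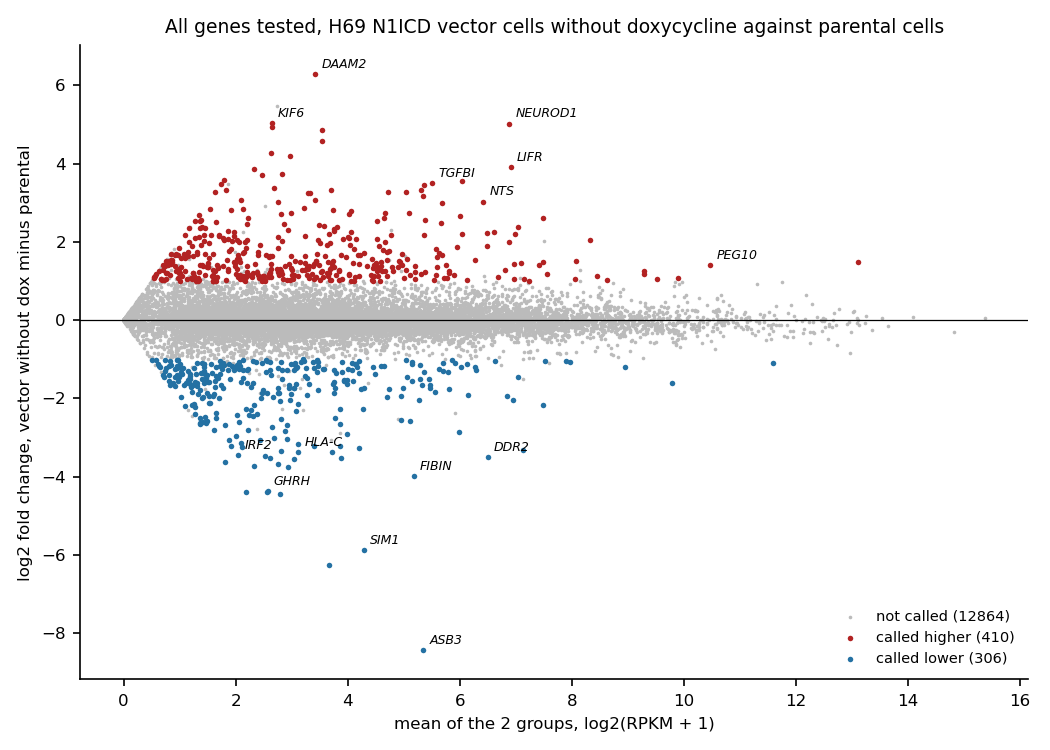
Each point is 1 of 13580 genes, with the mean of both groups in log2(RPKM + 1) across and the log2 fold change (vector without doxycycline minus parental) up. Red points were called higher (410), blue points lower (306) and gray points not called. *NEUROD1* lies far above and *ASB3* far below the bulk of genes at similar levels.

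The uninduced vector cells had gained *NEUROD1*. It was at 5.03, 4.77 and 3.31 in the parental libraries and at 10.61, 8.88 and 8.69 in the vector libraries. The groups were far apart, with a log2 fold change of 5.02 ± 0.56 (SE, limma adjusted P = 0.000385). Since these are bulk RNA values, more cells with *NEUROD1* and more *NEUROD1* RNA in each cell cannot be told apart. Library 49 was the highest of the vector libraries, and without it the fold change was 4.41, still called. H82 parental cells held *NEUROD1* at 13.31, and in the induced libraries it was at 0.

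Of 26 neuroendocrine transcription factors tested, 4 were called higher and 2 lower, with a median log2 fold change of 0.01 against -0.01 over all genes, and without library 49 the counts were 5 and 2. Beside *NEUROD1*, the higher ones were *SOX11*, a SOX factor of immature neurons (3.03 ± 0.05 to 4.23 ± 0.10, SD, n = 3), the LIM factor *LHX2* (4.22 ± 0.24 to 5.58 ± 0.15) and *ONECUT1* (1.07 ± 0.09 to 2.47 ± 0.17). *NEUROD4*, a relative of *NEUROD1*, was at 5.29, 5.47 and 5.36 in parental and 5.64, 5.72 and 5.98 in vector cells, a difference of 0.41 ± 0.09 (SE) that fell short of the fold threshold. *NEUROD2* differed by -0.05 ± 0.09. *INSM1*, a zinc finger repressor that most neuroendocrine cells express, went from 8.83 ± 0.14 to 8.36 ± 0.08, also short of it. *SOX2* and *POU3F2*, factors of neural progenitors, differed by 0.29 ± 0.10 and -0.01 ± 0.21 (SE), *NKX2-1* by -0.35 ± 0.14 and *FOXA2* by -0.11 ± 0.12. *MYCN*, the MYC family member that H69 carries at a high level, decreased from 6.59, 6.79 and 6.66 to 5.39, 5.76 and 5.57 (log2 fold change -1.11 ± 0.10, limma adjusted P = 9.96e-05).

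Factors outside the list of neuroendocrine transcription factors moved as well. Those in this paragraph were picked after their values were seen, except *SIM1*, *DBX1* and *ASCL2*. *SIM1* and *DBX1* belong to the largest changes, and *ASCL2* to the list of markers of other cell types. *SIM1*, a bHLH-PAS factor of the hypothalamus, was at 7.18, 7.29 and 7.21 in the parental libraries and at 2.89, 0 and 1.14 in the vector libraries, and returned to a mean of 6.24 with doxycycline. *DLX1* and *DLX2*, homeobox genes of forebrain interneurons, fell together, with log2 fold changes of -2.57 ± 0.15 and -2.87 ± 0.11 (SE). *ASCL2*, a basic helix-loop-helix factor of tuft-like tumor cells, fell from 2.83, 3.05 and 3.19 to 0.32, 0.06 and 0.29. On the other side, *DBX1*, a homeobox gene of the developing hindbrain and cord, was at 0.57, 0 and 0 in parental and 4.43, 5.81 and 5.13 in vector cells. *BARHL1*, *RORB* and *TBX18*, further developmental factors, rose by 2.74 ± 0.11, 2.73 ± 0.27 and 3.26 ± 0.09.

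Of 35 neuroendocrine markers tested, 0 were called by limma (without library 49, 1 was called higher). An unadjusted P under 0.05 was given for 19 of the 35, against 5228 of all 13580 genes. The median log2 fold change of the markers was 0.24 against -0.01 over all genes. The sodium channel *SCN3A*, named after its value was seen, was the 1 marker whose fold change passed 1 (1.44 ± 1.67, SE), with 6.75 in library 49 and 0 in libraries 50 and 51, and it was -0.81 without library 49. Chromogranin A (*CHGA*) was at 6.02, 6.32 and 6.51 in parental and 5.83, 6.27 and 6.42 in vector cells, so the groups overlapped. Synaptophysin (*SYP*), a synaptic vesicle protein, differed by 0.06 ± 0.08 and the adhesion molecule *NCAM1* by 0.46 ± 0.08 (SE), neither past the fold threshold. *DDC*, the enzyme that makes dopamine and serotonin, was lower in every vector library (2.64, 2.92 and 3.27 against 3.48 to 3.50), by 0.55 ± 0.14, which also fell short. In induced cells *CHGA*, *DDC* and *INSM1* were all under 0.3.

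Neuropeptides split. Of 13 tested, 4 rose and 3 fell (without library 49, 5 and 3), beside 3.02% higher and 2.25% lower over all genes. Gastrin-releasing peptide (*GRP*), a classical peptide of these tumors, fell from 3.92, 4.11 and 4.02 to 1.30, 0.99 and 1.56 (log2 fold change -2.73 ± 0.13, limma adjusted P = 3.38e-06). *GHRH*, growth hormone-releasing hormone, went from 4.69, 4.83 and 4.75 to 0, 1.15 and 0, and the opioid precursor *PENK* from 2.70 ± 0.20 to 0.71 ± 0.60 (SD, n = 3). Neurotensin (*NTS*) rose from 5.09, 4.86 and 4.77 to 7.85, 7.86 and 8.10, and *ADCYAP1* (the peptide PACAP), *NPY* and *GAL* rose by 2.00 ± 0.21, 1.93 ± 0.19 and 1.20 ± 0.14 (SE). Within each of these genes the groups were separate. Of 8 nicotinic receptor subunits 1 was called: *CHRNA1* rose from 0.10 ± 0.17 to 2.63 ± 1.00 (SD), with 3.64, 2.62 and 1.63 in the 3 vector libraries, and it was not tested without library 49 because too few libraries then passed the filter.

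**Figure D3:**
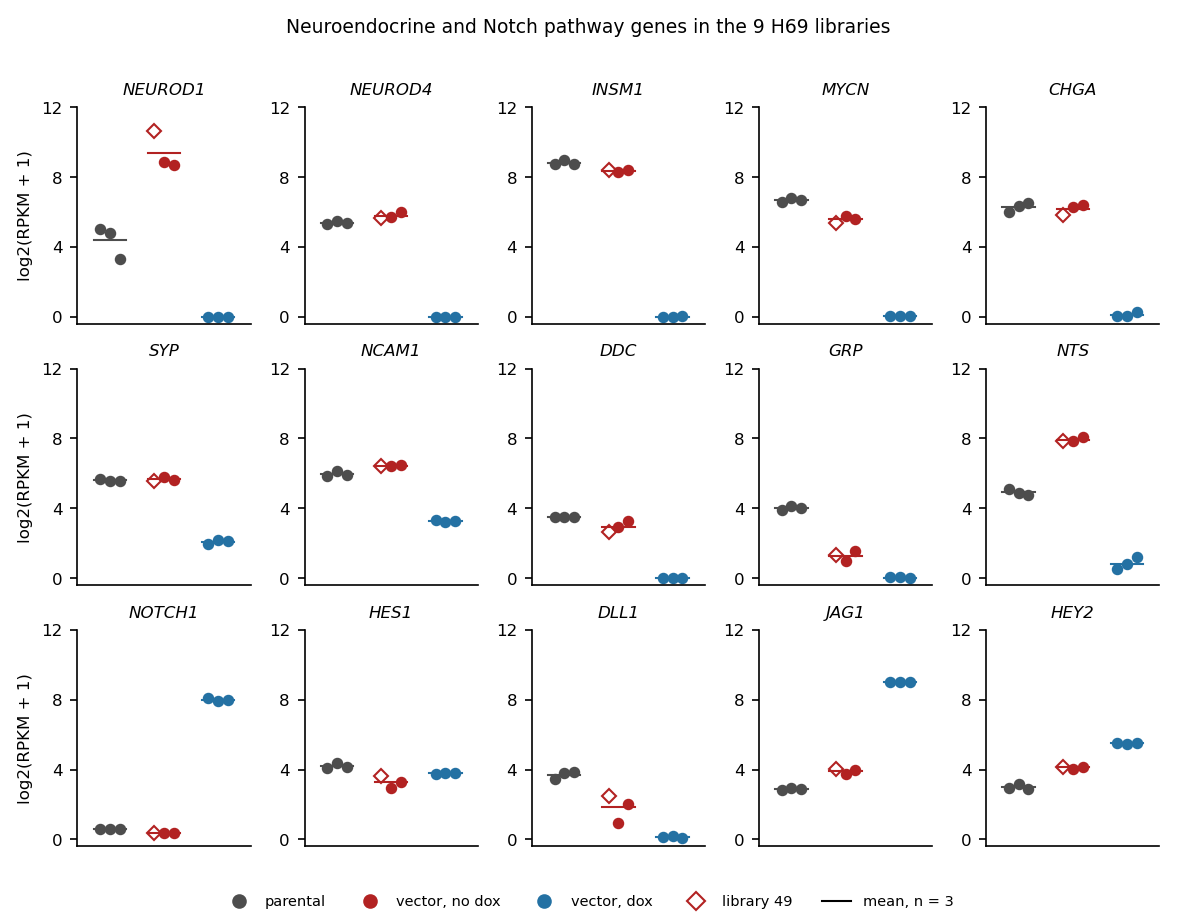
Levels of 15 neuroendocrine, neuropeptide and Notch pathway genes in the 9 H69 libraries, in log2(RPKM + 1). Gray points are parental cells, red points vector cells without doxycycline (open diamond, library 49) and blue points vector cells with doxycycline, with bars at the means of 3 libraries. *GRP* drops and *NEUROD1* and *NTS* climb from gray to red, while *CHGA* and *SYP* keep their level and *NOTCH1* rises only in blue.

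No rise of *NOTCH1* RNA was measured without doxycycline. *NOTCH1*, to which transcripts of the human N1ICD insert can also be counted, was at 0.58, 0.62 and 0.58 in the parental libraries and at 0.38, 0.39 and 0.39 in the uninduced vector libraries. Each vector library lay below each parental one, by 0.21 ± 0.06 (SE, limma adjusted P = 0.0295, short of the fold threshold), whereas the induced libraries held 8.07, 7.93 and 7.97. Notch target genes gave no common direction: of 13 tested, 1 was called higher and 0 lower, with a median of 0.07. Over all genes 5.27% were called, and without library 49 the counts for the targets were 1 and 1. *HES1*, the canonical Notch target and a repressor of neuronal differentiation, was at 4.08, 4.40 and 4.16 in parental and 3.62, 2.93 and 3.27 in vector cells. The log2 fold change of -0.94 ± 0.16 just missed the threshold and reached -1.11 (called lower) without library 49. *NRARP*, a feedback inhibitor of Notch, was 0.59 ± 0.11 lower and *HEY1* 0.15 ± 0.12 higher (SE), neither called. *HEY2*, a repressor of the same family, was the 1 called, at 2.92, 3.19 and 2.90 against 4.15, 4.05 and 4.15. *HES5* stayed under 0.7 in all 6 libraries and reached 4.96 to 5.11 with doxycycline.

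Among 7 ligands tested, 1 was called in each direction (without library 49, 0 higher and 1 lower). *DLL1* fell from 3.47, 3.80 and 3.83 to 2.48, 0.96 and 2.05 (log2 fold change -1.87 ± 0.33, limma adjusted P = 0.00372). *JAG1* rose from 2.88 ± 0.04 to 3.92 ± 0.14 (SD), a difference of 1.04 that became 0.99, under the threshold, without library 49. *DLL3*, an inhibitory ligand and a therapeutic surface target in this tumor, was at 4.57, 4.71 and 4.58 in parental and 4.28, 3.96 and 3.83 in vector cells, a difference of -0.60 ± 0.12 that was not called. *DLL4* (-0.59 ± 0.19) and *JAG2* (-0.06 ± 0.07) were not called either. Of 3 receptors tested 0 were called by limma with or without library 49 (2 had an unadjusted P under 0.05 with it), and *NOTCH3* stayed under 0.8 in all 6 libraries. Of the 7 genes of the REST repressor and its CoREST partners 0 were called by limma, also without library 49, and 1 had an unadjusted P under 0.05. *REST*, which silences neuronal genes, was at 0, 0.12 and 0.10 in parental cells and at 1.34, 0 and 0.12 in vector cells, the 1.34 being library 49.

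Of 19 antigen presentation genes tested, 0 were called higher and 4 lower, and 15 were not called. In this list 16 had a log2 fold change under 0, and the median was -0.47 against -0.01 over all genes. Without library 49 the counts were the same and the median was -0.41. *HLA-C*, an MHC class I heavy chain, fell from 4.62, 4.86 and 4.90 to 1.88, 1.13 and 1.28 (log2 fold change -3.36 ± 0.18, limma adjusted P = 6e-06). The groups were widely separate, and induced cells held it at 7.15 to 7.24. HLA genes resemble each other closely, and how reads were shared among them by the authors' counting leaves each single level uncertain. *TAPBPL*, a peptide editor of class I, went from 3.77 ± 0.32 to 2.12 ± 0.18, *PSME1*, a proteasome activator subunit, from 4.63 ± 0.13 to 3.38 ± 0.32, and *ERAP2*, a peptidase that trims peptides, from 1.24 ± 0.20 to 0.05 ± 0.04 (SD, n = 3), and all 3 were called lower. *B2M*, the light chain shared by class I molecules, was at 6.80, 6.91 and 6.92 in parental and 6.50, 6.12 and 6.39 in vector cells, a decrease that missed the fold threshold (-0.53 ± 0.10). Tapasin (*TAPBP*) differed by -0.74 ± 0.10, also not called. *HLA-B*, *TAP1*, *TAP2*, *PSMB8*, *PSMB9* and *NLRC5*, the last a transactivator of class I genes, were low in all 6 libraries, at 1.11 or less.

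*IRF2*, a regulator that binds interferon response elements, nearly vanished. It is named here after its value was seen, since it stood outside every list and the 15 largest decreases. The parental libraries held 3.78, 3.83 and 3.69 and the vector libraries 0.75, 0.22 and 0 (log2 fold change -3.45 ± 0.16, limma adjusted P = 3.34e-06). Without library 49 the fold change was -3.66, and in induced cells of the same line *IRF2* was back at 4.81 to 4.85. *IRF1*, its relative, was lower by 0.96 ± 0.12, short of the threshold.

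Of 35 interferon-stimulated genes tested, 5 fell (6 without library 49) and 0 rose, 9 had a log2 fold change above 0, and the median was -0.12. The largest difference in the list was upward and not called: *BST2*, the antiviral tetherin, named after its value was seen, was at 0, 0 and 3.20 in parental and 6.64, 2.72 and 2.55 in vector cells, so the groups overlapped (2.90 ± 1.19, SE, limma adjusted P = 0.108, and 1.57 without library 49). Without library 48, the parental library at 3.20, the difference was 3.97 and *BST2* was called higher. *ISG15*, a ubiquitin-like protein, went from 2.14, 2.29 and 2.23 to 0.48, 0.67 and 0.86, and *OAS3*, a sensor of double-stranded RNA, from 5.14, 5.00 and 5.34 to 3.29, 3.33 and 3.66. *DDX60* and *SAMD9*, antiviral factors, fell by 1.27 and 1.35 on the log2 scale. *IFI6* fell by 1.88, but library 49 held it at 3.47, within the parental range of 3.42 to 4.43, against 0.92 and 1.73 in the other vector libraries, and the call was lost when any 1 of libraries 46, 47, 48, 50 and 51 was left out. *IFIH1*, the RNA sensor MDA5, was the only 1 of 15 nucleic acid sensing genes called lower, from 5.37, 5.41 and 5.46 to 2.22, 3.57 and 3.62, while without library 49 another of these genes was called higher. *TMEM173*, the gene of STING, was at 0.36 to 0.55 in parental and 0.17 to 0.19 in vector cells, near the floor in both, and 2.66 to 2.79 with doxycycline. Of 8 chemokine and cytokine genes 2 rose and 2 fell, with the same counts without library 49: *CCL2* and *CSF1* rose by 1.93 ± 0.21 and 1.48 ± 0.15, and *IL23A* and *IL32* fell by 1.56 and 1.86.

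The promoters of the 6 antiviral genes called lower are shown because all 6 hold the core of the interferon response element, to which IRF proteins bind. The sequences are the 250 bases before the RefSeq start (GRCh38.p14), read in the direction of the gene, with each match to the motif in capitals. The motif was GAAA, any 2 bases and GAAA again, searched on both strands (TTTC, any 2 bases and TTTC on the other), and overlapping matches run together.
ISG15 (chr1:1013247-1013496, plus strand): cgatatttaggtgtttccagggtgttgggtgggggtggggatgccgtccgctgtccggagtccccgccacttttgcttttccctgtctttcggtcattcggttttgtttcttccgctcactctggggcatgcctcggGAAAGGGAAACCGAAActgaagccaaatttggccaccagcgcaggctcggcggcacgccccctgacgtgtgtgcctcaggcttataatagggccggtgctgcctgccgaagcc
IFI6 (chr1:27672193-27672442, minus strand): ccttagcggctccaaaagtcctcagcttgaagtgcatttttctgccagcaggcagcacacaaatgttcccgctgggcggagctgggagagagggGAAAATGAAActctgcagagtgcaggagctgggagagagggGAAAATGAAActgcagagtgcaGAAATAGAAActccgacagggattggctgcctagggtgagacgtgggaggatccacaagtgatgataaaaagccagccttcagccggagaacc
OAS3 (chr12:112938224-112938473, plus strand): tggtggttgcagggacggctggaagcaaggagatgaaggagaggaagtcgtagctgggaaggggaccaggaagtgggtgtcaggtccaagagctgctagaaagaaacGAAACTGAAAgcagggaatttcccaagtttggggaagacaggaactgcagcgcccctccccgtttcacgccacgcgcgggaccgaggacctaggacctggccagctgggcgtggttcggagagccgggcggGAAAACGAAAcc
DDX60 (chr4:168318753-168319002, minus strand): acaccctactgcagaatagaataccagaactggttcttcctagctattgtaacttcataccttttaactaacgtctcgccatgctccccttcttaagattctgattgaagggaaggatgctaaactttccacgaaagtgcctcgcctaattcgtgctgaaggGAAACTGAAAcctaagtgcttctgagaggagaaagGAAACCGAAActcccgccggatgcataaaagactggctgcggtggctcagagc
SAMD9 (chr7:93117980-93118229, minus strand): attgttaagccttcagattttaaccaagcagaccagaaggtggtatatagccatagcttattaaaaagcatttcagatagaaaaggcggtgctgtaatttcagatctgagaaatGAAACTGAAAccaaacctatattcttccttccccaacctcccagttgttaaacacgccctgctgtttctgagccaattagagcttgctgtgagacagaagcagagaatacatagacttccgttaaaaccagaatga
IFIH1 (chr2:162318685-162318934, minus strand): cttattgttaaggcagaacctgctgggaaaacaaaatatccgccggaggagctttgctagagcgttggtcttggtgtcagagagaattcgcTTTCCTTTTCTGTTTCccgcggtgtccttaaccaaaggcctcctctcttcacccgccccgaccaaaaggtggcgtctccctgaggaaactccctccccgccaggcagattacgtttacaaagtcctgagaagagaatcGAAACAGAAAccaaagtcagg
Of 27305 promoter windows of the same length, 839 (3.07%) hold this motif. Among interferon-stimulated genes that were tested but not called, 11 of the 23 with a window hold it too. In that list the motif was thus also common among genes that did not pass the test. In the nucleic acid sensing list, which holds *IFIH1*, 0 of the 10 uncalled genes with a window hold it. A match describes letters in the window and not a bound site. Any link between these promoters and the decrease of *IRF2* was not tested.

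**Figure D4:**
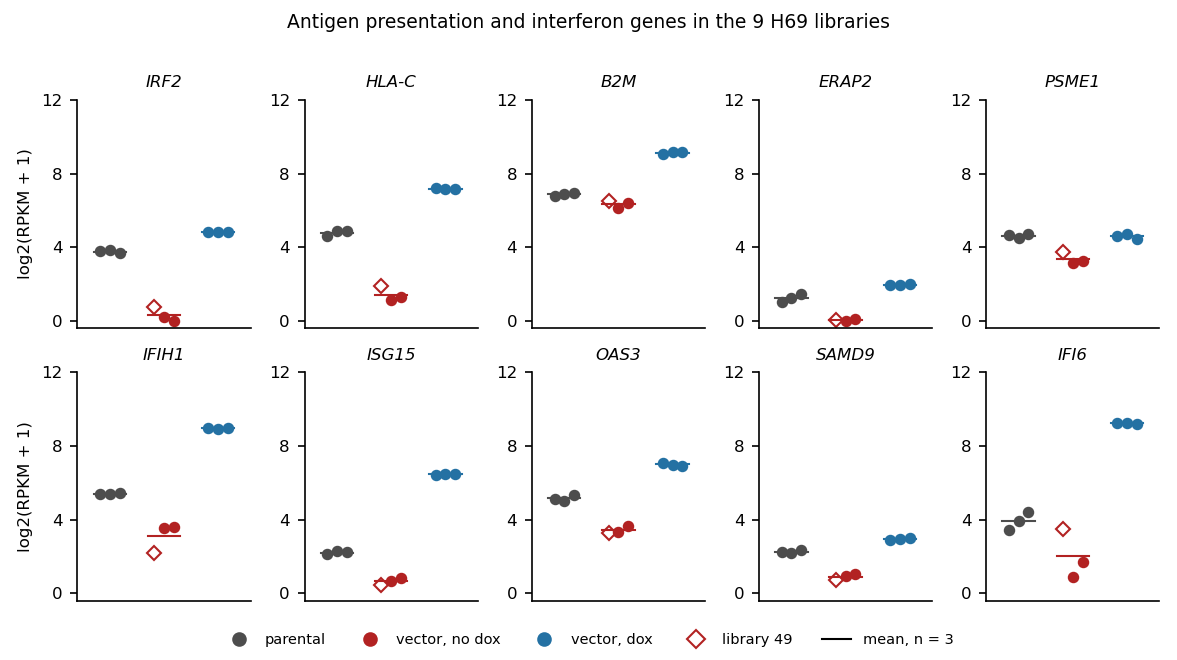
Levels of 10 antigen presentation and interferon genes in the 9 H69 libraries, in log2(RPKM + 1), drawn as in the plot of neuroendocrine genes. *IRF2* and *HLA-C* drop from gray (parental) to red (vector, no doxycycline) and are highest in blue (doxycycline), and *IFI6* in library 49 (open diamond) stays at the parental level.

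Genes of the extracellular matrix and of mesenchymal cells gained RNA in part. Of 49 genes of the epithelial-mesenchymal transition tested, 8 rose and 0 fell, with a median of 0.36, but without library 49 the median was 0.02 and the counts were 9 and 1. *TGFBI*, a matrix protein, went from 3.84, 3.94 and 3.47 to 6.90, 7.58 and 7.27. *COL1A2*, a chain of type I collagen, went from 3.74, 3.66 and 3.55 to 6.52, 7.21 and 7.20 (log2 fold change 3.32 ± 0.17, limma adjusted P = 5.01e-06), near the induced 7.61. *ITGA5* and *MMP2*, an integrin chain and a gelatinase, rose by 2.37 ± 0.27 and 2.12 ± 0.30, and *COL5A1*, *THBS1*, *LOX* and *CD44* by 1.16 to 1.68. Vimentin (*VIM*), a filament protein of mesenchymal cells, was at 0 to 0.02 in parental cells and at 1.36, 0 and 0 in vector cells, and *AXL* and *YAP1* were at 0 in every library but library 49 (0.29 and 0.92). *COL1A1*, the partner chain, was under 1.2 in all 6 libraries. With doxycycline *VIM*, *AXL* and *YAP1* reached 9.06, 8.48 and 7.39 or more. The fibroblast markers *DCN*, *LUM* and *PDGFRB* were under 0.4 in all 6, the immune markers *PTPRC*, *CD3E*, *CD68* and *LYZ* too, and the squamous keratin *KRT14* was at 0. Of 10 tested markers of other cell types, *COL1A2* was called higher and *ASCL2* lower, with or without library 49.

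Epithelial adhesion genes went the other way. Of 26 tested, 5 fell and 0 rose, with a median of -0.41 (without library 49, 4 fell and the median was -0.30). *RAB25*, a vesicle GTPase of epithelia, went from 4.60, 4.82 and 4.65 to 2.07, 0.51 and 1.98, and the claudins *CLDN3* and *CLDN4*, proteins of tight junctions, fell by 1.25 and 1.34 on the log2 scale. The epithelial factor *ELF3* fell by 1.49. *PKP3*, a desmosomal protein, fell by 1.25 but was not called without library 49. E-cadherin (*CDH1*) and *EPCAM* were lower by 0.84 ± 0.17 and 0.41 ± 0.09 (SE), neither past the fold threshold.

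Among receptor tyrosine kinases, 2 of 33 rose and 3 fell, and without library 49 the counts were equal to these. Over all genes 3.02% were called higher and 2.25% lower, which is the measure for each list in this paragraph. *DDR2*, a collagen receptor, fell from 8.14, 8.34 and 8.27 to 5.02, 4.81 and 4.42 (log2 fold change -3.50 ± 0.14, limma adjusted P = 1.13e-06), and induced cells held 11.28. *MET* fell from 4.24 ± 0.05 to 2.33 ± 0.04 (SD), and *EPHA7* by 1.58. *ALK* and *EPHB4* rose by 1.19 ± 0.20 and 1.39 ± 0.11 (SE). Of 32 WNT and BMP pathway genes 6 rose and 1 fell (7 and 2 without library 49). *WNT6* went from 5.84 to 8.22 on average and *WNT16* from 1.79 to 3.41, the WNT antagonists *DKK3* and *FRZB* rose by 1.66 and 1.36, and *LGR5*, a stem cell receptor, fell by 1.65. Of 33 genes of the integrated stress and unfolded protein responses 3 fell and 0 rose, with a median of -0.51 and 30 below 0, and without library 49 the count was 5 and the median -0.66. The stress regulator *NUPR1* fell from 5.24, 5.98 and 6.31 to 2.90, 2.27 and 2.54, and *TRIB3* and *FGF21* fell by 1.27 and 1.28. *DNMT3B*, a de novo DNA methyltransferase, decreased from 6.93 ± 0.10 to 5.64 ± 0.13 (SD). Of 36 HOX genes 4 fell and 0 rose (6 and 0 without library 49), all 4 of the HOXB cluster: *HOXB9* by 2.17, *HOXB6* by 1.69, *HOXB5* by 1.52 and *HOXB2* by 1.03.

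Several lists gave no call. Their counts are to be read beside all 13580 genes tested, of which 5228 had an unadjusted P under 0.05 and 7055 were below 0. Without library 49 that P was reached by 6239 of 13447 genes. Of 36 cell cycle genes (median 0.08) 0 were called by limma, with an unadjusted P under 0.05 for 5. Likewise 0 were called by limma among 14 CDK inhibitors and D cyclins, 30 cholesterol and fatty acid synthesis genes and 7 drug efflux transporters, where the unadjusted P was under 0.05 for 4, 7 and 3. Without library 49 these counts of calls were 0 as well. Of 87 ribosomal protein genes 0 were called by limma and 20 had an unadjusted P under 0.05 (77 without library 49), and 75 were below 0, with a median of -0.15 that became -0.33 without library 49. The 34 hypoxia and glycolysis genes gave 0 calls by limma (1 without library 49), with an unadjusted P under 0.05 for 7. The next lists did give calls, and their counts are to be read beside the 5.27% called over all genes. Of 404 zinc finger genes 3 rose and 5 fell, also without library 49, a share below that of all genes. *ZNF91*, a repressor of mobile elements, went up from 0.73 ± 0.13 to 3.00 ± 0.04, and *ZNF385B* and *ZNF516* went down by 3.73 and 3.14. Cancer-testis genes, which are silent in most tissues outside the germline, gave 1 call of 31 (1 without library 49), the lower *PRAME* (3.91, 3.84 and 3.70 to 2.86, 1.52 and 1.86). Imprinted genes gave 2 of 29, both higher (3 without library 49): *PEG10*, a retrotransposon-derived gene already among the most abundant of the line, went from 9.71, 9.84 and 9.74 to 10.81, 11.29 and 11.43, and *MEG8* rose by 1.05.

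The largest increases not yet named began with *DAAM2*, a formin of WNT signaling, at 0, 0.44 and 0.39 in parental and 5.99, 6.91 and 6.77 in vector cells (10.38 with doxycycline). *KIF6*, a kinesin, was at 0.19, 0.19 and 0 against 4.42, 5.56 and 5.52, and at 0.79 with doxycycline. *GPR126*, an adhesion receptor of Schwann cells, *ALDH1A3*, which makes retinoic acid, and lipoprotein lipase (*LPL*) rose by 4.85 ± 0.20, 4.58 ± 0.36 and 4.19 ± 0.07 (SE). *LIFR*, the receptor of leukemia inhibitory factor, went from 4.59, 5.13 and 5.15 to 8.31, 9.32 and 8.94, and *SOCS2*, a cytokine signaling inhibitor chosen after its value was seen, rose by 3.28 ± 0.12. *ITGA2*, an integrin chain for collagen, and *ENPP2*, which makes lysophosphatidic acid, rose by 3.87 ± 0.24 and 3.56 ± 0.29. *RASSF8-AS1*, *FAM26D* and *NUDT7* completed the upper list, with rises of 4.26, 3.72 and 3.71. *LPL* and *DBX1* left the test when any 1 vector library was removed, because too few libraries then reached the filter. Library 49 held the lowest value of the vector group in *DAAM2*, *KIF6*, *GPR126*, *ALDH1A3* and *LIFR*.

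The largest decrease belonged to *ASB3*, a ubiquitin ligase adaptor, at 9.46, 9.81 and 9.40 in parental and 3.38, 0 and 0 in vector cells. Its exons are shared with the read-through transcript *GPR75-ASB3*, which went from 3.60 ± 0.05 to 2.52 ± 0.12, so the division of reads between these genes is uncertain. *HS3ST5*, a heparan sulfate sulfotransferase, was at 4.62, 5.02 and 5.39 against 0, 1.69 and 0. *TEX41*, a long noncoding RNA, was at 4.75, 4.82 and 4.70 against 0.35, 0.44 and 0.33, a difference of -4.38 ± 0.07 (SE). *FIBIN* and *TCIRG1*, a proton pump subunit, fell by 3.99 and 3.66 and were both near the parental level with doxycycline (means of 7.25 and 4.64). *ARRDC4* fell by 3.53, *C7orf61* by 3.53, *GLYATL3* by 3.76 and *NUPR1L* by 3.54, the last with 3.81 in library 50 against 0 in libraries 49 and 51.

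Few genes were wholly off in 1 group. By the measure of under 0.1 in all 3 libraries of a group and at least 2 in all 3 of the other, 4 genes were on in the vector cells and 4 off, and without library 49 there were 8 and 12. Those on were *SLC37A2*, a sugar-phosphate exchanger (4.62, 3.61 and 2.55), the microRNA gene *MIR210* (3.70, 3.93 and 2.84), *CAPNS2* (2.16, 4.13 and 3.55) and *EPDR1* (2.38, 2.69 and 2.54). Those off were the matricellular gene *SMOC2* (4.35, 4.36 and 4.42 in parental cells), the enamel gene *AMBN* (3.21, 4.16 and 3.45), *AKR1C2*, a steroid reductase (2.59, 2.62 and 2.87), and *S100A9*, a calcium-binding alarmin (2.28, 2.20 and 2.10). The very short *MIR210* gene gives few reads, and its polyA-selected precursor is not the mature microRNA.

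Some stretches of the genome moved as blocks. In windows of 50 neighboring tested genes, 271 in all, the median log2 fold change lay between -0.12 and 0.13 at the 5th and 95th percentiles, and 10 windows reached 0.2 in size, a limit chosen after the data were seen. The end of the long arm of chromosome 3 gave the 3 highest medians, 0.40, 0.53 and 0.46 (GRCh37: chr3:167726477-183530412, chr3:183533710-194219093 and chr3:194207869-197687013). In the middle one 46 of 50 genes were above 0, and libraries 49, 50 and 51 had medians of 0.55, 0.53 and 0.51 against the parental mean, so the shift was alike in all 3. The genes called there included *C3orf70* (1.73 ± 0.07), *EHHADH*, an enzyme of peroxisomal fatty acid oxidation (1.32 ± 0.12), *MAP6D1*, *HRASLS* and *LRRC15*, and in its neighbors *TNIK*, a WNT pathway kinase (0.23 to 2.32 on average, and 1.42 higher without library 49), *PLD1*, a phospholipase (2.03 ± 0.11), *SOX2-OT*, *MFI2* and *MFI2-AS1*, against *MCF2L2* and *B3GNT5*, which fell by 2.38 and 1.62. Chromosome 22 was higher along most of its length: 248 of its 333 tested genes (74.5%) were above 0, with a median of 0.19 and library medians of 0.14, 0.18 and 0.21, whereas the other 22 chromosomes measured had medians from -0.06 to 0.04. Few single genes of chromosome 22 were called, among them *EMID1* (1.55 ± 0.21) and *NFAM1* higher and *TSPO* lower. A window of the short arm of chromosome 12 was lower (median -0.24, 11 of 50 genes above 0, chr12:175933-6880118), with *SCNN1A*, a sodium channel subunit, from 5.68 ± 0.04 to 3.72 ± 0.07 and the potassium channel *KCNA6* and *GALNT8* down by 1.95 and 1.51, but *PARP11* up by 2.71. Windows of chromosomes 17 (median -0.22) and 18 (-0.23) also stood low, the former with the HOXB genes and *PRR15L*, which fell by 1.59, and *RPRML*, which rose by 1.47, the latter with *GRP*, *ZNF516*, *SALL3*, *CBLN2* and *HMSD*, all lower. Without library 49 they were at -0.19 and -0.16, under the limit, as was 1 window of chromosome 22 (0.18). The same windows were also read where uninduced vector and parental cells of H82 or H524 were compared. There, windows elsewhere in the genome reached -0.59 and 0.61 in H82 and -0.91 and 0.77 in H524. Medians of the size below were thus not particular to these stretches in those lines. The chromosome 3 medians were 0.46, 0.21 and 0.16 in H82 and -0.26, 0.11 and -0.02 in H524. For chromosomes 12, 17 and 18 they were -0.35, 0 and 0.16 in H82 and -0.02, 0.36 and -0.30 in H524. The chromosome 22 windows past the limit were at -0.001 to 0.26 in H82 and -0.14 to 0.09 in H524. All these medians describe neighboring RNA levels, and DNA copy number was not measured here.

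**Figure D5:**
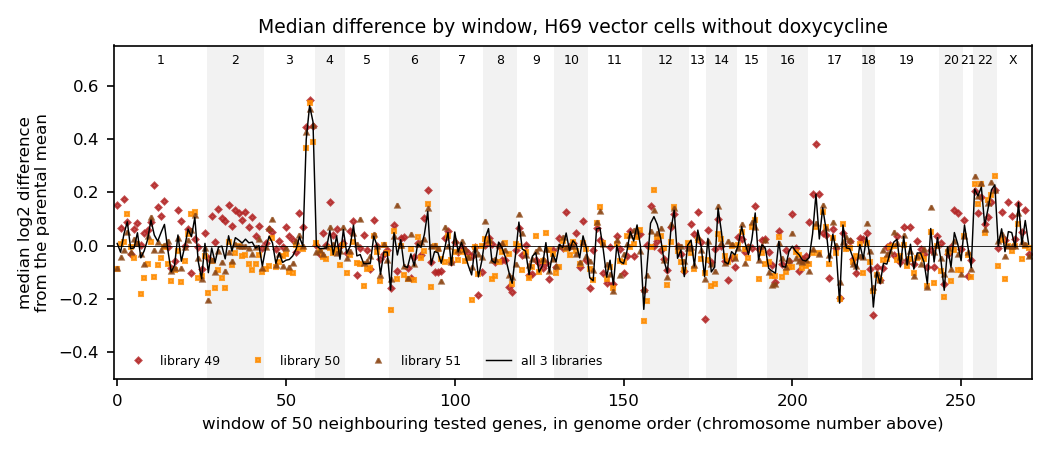
Median log2 difference from the parental mean in 271 windows of up to 50 neighboring tested genes, in genome order with chromosome numbers above. Symbols are the 3 uninduced vector libraries and the line the fold change over all 3. The end of chromosome 3 stands at 0.40 to 0.53 and chromosome 22 lies above 0 throughout, in each of the libraries.

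The same contrast was made in 2 other lines, H82 and H524, both of the *NEUROD1* type, with 3 libraries a group and no library in common with H69. Vector cells without doxycycline differed from parental cells in 891 of 13903 genes in H82 (6.41%) and in 1651 of 13648 in H524 (12.1%). Fitted with only the compared groups, the counts were 392 and 716, and the shared calls below rest on the larger ones and were not computed without library 49. Leaving out library 4, an H82 vector library, took the H82 count to 1582. A vector for *REST* in H524 gave 36 calls (0.264%), from the same parental libraries as the H524 *NOTCH1* vector. Of the 716 H69 genes 44 were called in the same direction in H82 (6.15% of the H69 genes and 4.94% of the H82 genes) and 43 in the opposite one (6.01% and 4.83%). For H524, 74 had the same direction (10.3% and 4.48%) and 79 the opposite (11.0% and 4.78%). Genes called in the same direction in all 3 lines numbered 6: *ASTN2*, *COL5A1*, *ETFB* and *ZNF91* were higher and *PCDH10* and *VEGFC* lower. *ZNF91* rose by 2.27 in H69, 2.44 in H82 and 2.36 in H524.

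A test of the difference between lines bore on the named changes. The contrast differed between H69 and H82 in 1175 of 15100 genes (7.78%) and between H69 and H524 in 2172 (14.4%). *NEUROD1* was already at 13.31 and 13.79 in the parental cells of H82 and H524 and differed there by 0.50 and 0.22, against 5.02 in H69 (limma adjusted P = 0.000155 and 5.92e-05). From levels so high, a rise of the H69 size could hardly be seen. *HLA-C* was lower in H69 but 0.52 and 0.64 higher in H82 and H524, and the lines differed by -3.88 ± 0.51 and -4.00 ± 0.51. *IRF2* differed by -0.04 in H82 and by -1.61 in H524, so the H69 decrease exceeded both (limma adjusted P = 2.43e-06 and 0.00223). For *GRP* and *COL1A2* the differences between lines were past the threshold as well, but H82 and H524 hardly express *GRP*, so it could hardly fall there. *NOTCH1* itself was 1.14 higher in uninduced than in parental H82 cells (limma adjusted P = 0.091) and 0.80 higher in H524 (limma adjusted P = 0.0419, short of the fold threshold), and the contrast in H69 was -1.35 ± 0.36 relative to that of H82 (limma adjusted P = 0.0157). *HES1* differed between H69 and H82 by -1.59 ± 0.47 (limma adjusted P = 0.0307), but the difference from H524 was not called (limma adjusted P = 0.0861).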

How the data were processed

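RNA-Seq of polyA RNA (stranded, paired-end) was measured in 60 human libraries, 3 per group. The authors trimmed, aligned and counted reads with cutadapt, STAR and RSEM against hg19 and scaled them with edgeR, per the labels and the submitters' processing notes, which give no versions. The deposited values are log2(RPKM + 1), as the authors normalized them. The table holds no counts, so a count test was not used, and read totals are unknown. Relative depth was taken from the value of 1 read among low genes, 0.81 to 1.11 times library 46, and low genes are least precise.

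Libraries were grouped by their labels. The 9 H69 libraries were fitted together, 1 mean per group, with limma 3.58.1 (R 4.3.3, trended variances, two-sided, Benjamini-Hochberg adjustment over all genes tested), on genes at log2 1 or more in at least 3 libraries. A call needed an adjusted P under 0.05 and a log2 fold change of at least 1. H82, H524 and the differences between lines were fitted alike. The code was tested on simulated data. Alternatives were another filter, a pseudocount of 0.1, 2 scalings, only the compared groups, no trend and each library left out. Those on library 49 for lists, windows and on or off genes were chosen after seeing the data. The members and lists were chosen with earlier results of these data known. Genes were named if among the 15 largest changes per direction with groups that did not overlap, called members or central genes of the lists, on or off genes, or the largest changes of windows that stood apart. Positions came from a GRCh37 annotation, in which 19060 genes matched by symbol, 1272 by an older symbol and 184 not at all. Promoters came from RefSeq on GRCh38.p14. The mouse table was not used. A few genes that were in the lists and counts are not reported here.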

Additional observations from a re-analysis of the deposited data

Results flagged for a closer look

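For each of these genes the contrast in H69 differed from the same contrast in H82 or H524. The test was limma's test of the difference, over 15100 genes, 3 libraries a group. For *NEUROD1* the log2 difference of differences was 4.52 from H82 and 4.80 from H524, and for *IRF2* -3.41 and -1.84. It was -3.88 and -4.00 for *HLA-C* and 3.51 and 2.99 for *COL1A2*. For *GRP* it was -2.71 and -2.72, but H82 and H524 hardly express *GRP*. A decrease there could hardly be seen, so this difference restates the H69 decrease. Likewise *NEUROD1* was already at 13.31 and 13.79 in parental H82 and H524, where a rise like that of H69 could hardly be seen. *NEUROD1*, *IRF2*, *HLA-C*, *COL1A2* and *GRP* were called in these same H69 libraries, so the choice of genes favored large differences. *HES1* and *NOTCH1* differed from H82 alone by the same threshold, by -1.59 and -1.35, though neither was called in H69 itself. *NOTCH1* differed by -0.21 in H69 and by 1.14 in H82, where it was not called either. Across all genes the difference was called for 1175 genes against H82 and 2172 against H524. Without library 49 all of these single-gene differences stayed past the threshold. They were not looked at without library 4 of H82.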

How the results depend on the processing

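The count of 716 genes stayed within 636 to 777 when each library was left out, at 684 to 733 without the filter, under both scalings, without the trend or with only the compared groups, and at 1073 with a pseudocount of 0.1. Of 149 called genes named here, 130 to 137 stayed called in each fit that left out a library and 7 or 8 then left the test, and none changed direction under any alternative run. Fitted with only the compared groups, H82 gave 392 calls and H524 716. Leaving out libraries gave 617 to 1582 calls in H82, the highest without library 4, 1359 to 2230 in H524, 982 to 1727 and 1870 to 2740 for the differences of H69 from H82 and H524, and 17 to 51 for *REST* in H524. The last count was 19 without the filter and 95 with a pseudocount of 0.1. The median of chromosome 22 was 0.22 with that pseudocount and 0.19 without library 49. The cause of these shifts was not tested. No paired analysis was possible because library numbers run through the series and tie no parental library to a vector library. Low genes are limited by a depth that the table does not give.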
